A study of Bos taurus with 2 samples.

Results

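Trypsin-like serine proteases were read from the bovine testis arrays as the non-control probes whose gene name starts with PRSS, TMPRSS, KLK or CELA. They numbered 47 gene names, with 68 probes and 71 spots, of 32429 gene names, 51282 probes and 61657 spots on the array. The PRSS names accounted for 19 genes and 29 probes, the KLK names for 13 genes and 16 probes, the TMPRSS names for 12 genes and 18 probes, and the CELA names for 3 genes and 5 probes. The rule used gene names only and no measured value.

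The study set the testis of crossbred bulls beside that of Zebu bulls. The crossbred group was 3 Holstein Friesian crossbred bulls with part exotic inheritance, the Zebu group was 3 Tharparkar bulls, and all were adult males aged 24 months. RNA of the 3 animals was pooled in equal amounts within each group, labelled with Cy3 and hybridised to 1 Agilent array, so that each group has 1 value and no test, standard deviation between animals or p-value can be given. Every difference is given on the log2 scale as the crossbred value minus the Zebu value. The probes carry Bos taurus sequence, and base differences between the breeds under a probe cannot be told apart from differences in transcript level. In whole testis, fewer cells of a type and less RNA per cell cannot be told apart either.

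Serine proteases of the trypsin fold cut proteins by means of a serine in their active site and are mostly made as inactive precursors. In the testis, germ cells make their own set of them, among them acrosin of the acrosome, testisin (PRSS21), the testis serine proteases of the PRSS42 to PRSS50 group, and the inactive family member PRSS37, which male mice need for fertility. Pancreatic trypsins and elastases digest food, kallikreins are secreted proteases of skin, glands and brain, and the TMPRSS proteases are anchored in the membrane of epithelia.

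The values are normalized log2 signals, with 0 at the 75th percentile of all non-control probes of an array. A gene was read from the brightest of the probes that carry its gene name on the array. It is called detected if the scanner software marked that probe as well above background in 1 pool or in both. It is called higher or lower in crossbred testis from a difference of 1.5 in size upwards, which is 2.83-fold, provided the brighter pool carried that mark. The spread between replicate spots of a probe gave a standard deviation of 0.34 for a difference, which covers spotting and scanning only. Tissue markers were present on both arrays, with PRM1, a protamine of spermatids, at 7.43 and 7.07 and INSL3, a Leydig cell hormone, at 6.25 and 6.69 in the crossbred and the Zebu pool.

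The largest positive differences among members detected in both pools were those of the probe named PRSS1, PRSS58 and PRSS37. These 3 probes lie on chromosome 4, where the trypsin genes are. The probes below are shown because PRSS37, PRSS58 and a transcript described as PRSS1 had large differences and PRSS2 had a small one. The probe of that transcript, XM_866993, is not a member by name and has no chromosome position given. The probe named PRSS1 is not printed. Capitals mark the run GGNNTNTANACN, where N is any base. It is the first 12 bases of the PRSS37 probe with the last base of each codon and the first base of the second codon left free, and such a run lies near the end of the coding sequence of many genes of this fold.
PRSS37: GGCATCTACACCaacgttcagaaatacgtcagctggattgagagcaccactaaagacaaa
PRSS58: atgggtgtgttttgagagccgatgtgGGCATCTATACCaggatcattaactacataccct
XM_866993: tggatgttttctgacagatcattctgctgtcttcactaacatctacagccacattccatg
PRSS2: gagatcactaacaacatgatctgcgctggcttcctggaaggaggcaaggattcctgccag

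The run was chosen after the probe sequences were seen. It occurs in 10 of the 68 member probes, 14.7%, as printed or in reverse complement, against 234 of 51282 probes on the array, 0.456%. The 10 probes belong to PRSS37, PRSS42, PRSS58, KLK12, KLK14, KLK15, KLKB1, TMPRSS11A, TMPRSS11E and TMPRSS11F. Their differences did not follow the run, since PRSS37 and PRSS58 had large positive differences while PRSS42 and KLK12 did not. The median GC content was 45% for all probes, for member probes and for the probes of the higher members.

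Of the 47 genes, 32 were well above background in both pools, 13 in neither, CELA3B in the crossbred pool alone and KLK6 in the Zebu pool alone. Among the 34 detected genes, 8 were higher in crossbred testis and 2 were lower. Over all gene names detected, 7.12% were higher and 2.92% were lower, that is 1762 and 722 of 24751. With a normexp background correction in place of the scanner's own, all gene names gave 1030 higher and 169 lower, and the members gave 6 higher and 0 lower. The median difference of the 32 genes was 0.15, beside -0.04 for all gene names on both arrays.

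All 8 higher genes belong to the list of germ-cell proteases or to the list of digestive proteases, lists that were drawn up with earlier results of these arrays known. Outside these lists 35 member genes remained, of which 22 were detected, 0 were higher and 2 were lower, with a median difference of -0.13 over the 21 on both arrays. The paper lists PRSS1, PRSS37, PRSS58, CELA2A and CELA3B among its upregulated proteolysis genes from the same arrays. The counts of higher members are thus not independent of its results.

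**Figure D1:**
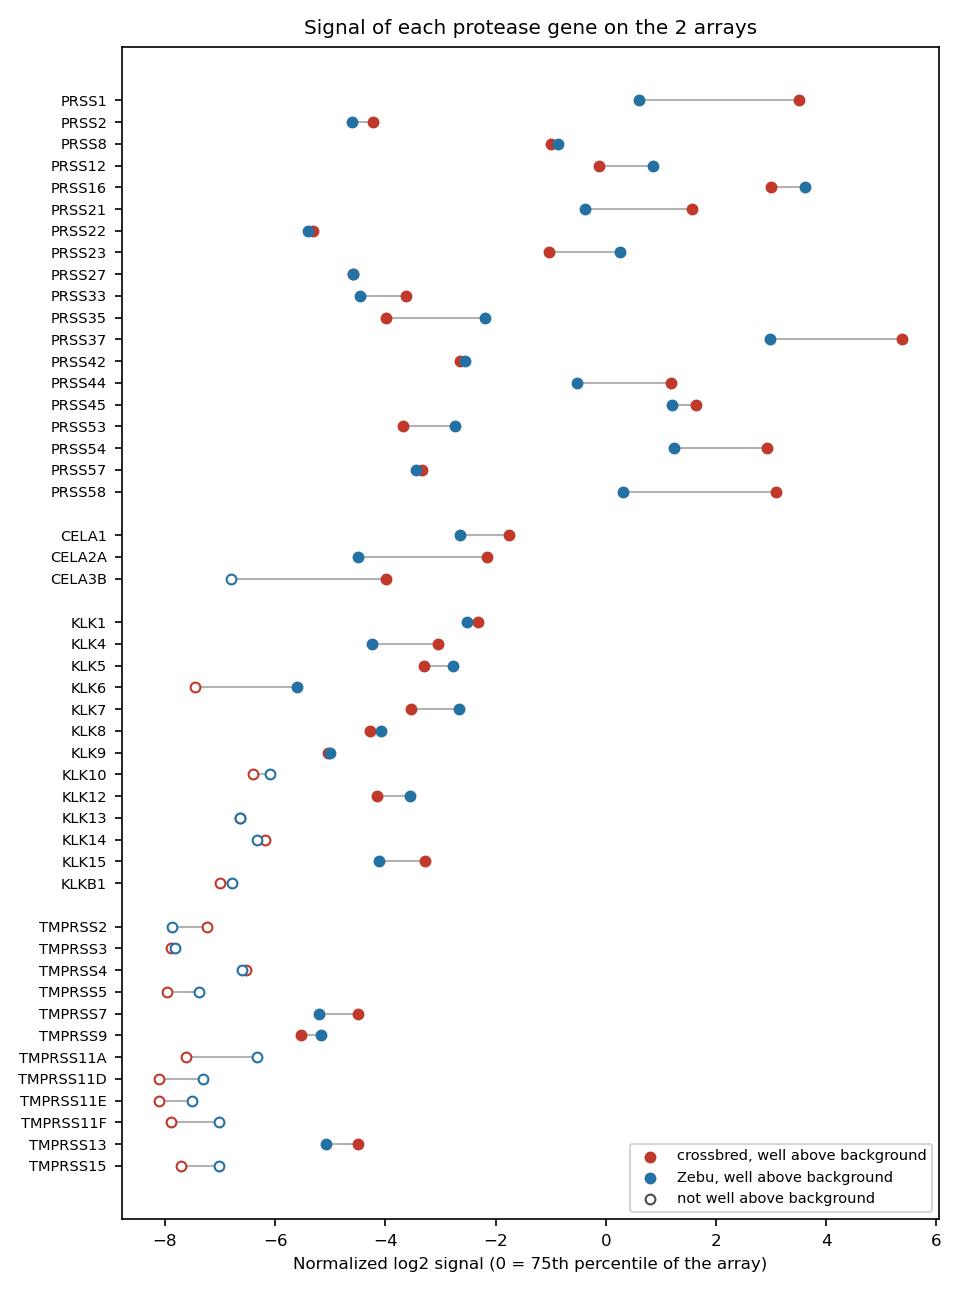
Normalized log2 signal (x axis, 0 is the 75th percentile of the array) of the brightest probe of each of the 47 genes (y axis), with the crossbred array in red and the Zebu array in blue. Filled points are well above background and open points are not. Wide gaps towards the crossbred array are seen for PRSS genes, as for PRSS37 at 5.38 against 2.97, and for CELA2A and CELA3B, and 9 of the 12 TMPRSS genes are open on both arrays.

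Of 19 germ-cell proteases listed, 7 had a gene name on the array, and all 7 were detected in both pools. Higher in crossbred testis were 5 of them, beside 7.12% over all gene names detected, and the median difference was 1.70. PRSS37 had a signal of 5.38 in the crossbred pool and 2.97 in the Zebu pool, a difference of 2.41 or 5.31-fold. PRSS58, a trypsin-like gene of the same chromosome, had 3.09 and 0.32, a difference of 2.78 or 6.86-fold. Both were above the 75th percentile in both pools.

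PRSS21, testisin, a protease tethered to the membrane of sperm, had a signal of 1.56 and -0.37, a difference of 1.93. PRSS54 had 2.93 and 1.23, a difference of 1.70. PRSS44, one of the testis serine proteases, had 1.18 and -0.53, also a difference of 1.70. These genes were thus above the threshold by less than the spot spread of 0.34 for PRSS44 and PRSS54, and by more than it for PRSS21.

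The remaining germ-cell proteases had small differences. PRSS45 had a signal of 1.64 in the crossbred pool and 1.19 in the Zebu pool, a difference of 0.45. PRSS42 had -2.65 and -2.55, a difference of -0.10, which is within the spot spread. PRSS38 and PRSS50 are on the array under Ensembl transcript names and so are not members by gene name. The probe of PRSS38 had -0.68 and -1.11, a difference of 0.43, and that of PRSS50 had -2.05 and -2.39, a difference of 0.35.

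On chromosome 22 the PRSS42, PRSS44, PRSS45 and PRSS50 probes lie within 103 kb of each other. The neighbours did not share one difference, with -0.10 for PRSS42, 1.70 for PRSS44, 0.45 for PRSS45 and 0.35 for PRSS50 in that order. On chromosome 25 the PRSS27, PRSS22, PRSS21 and PRSS33 probes lie within 150 kb, with differences of 0.01, 0.08, 1.93 and 0.82. PRSS21 stood apart there from PRSS27 and PRSS22, which are proteases of epithelia. The probes of PRSS42 and PRSS45 are shown as neighbours with small differences, and the probe of PRSS44 is not printed. Those of PRSS21 and PRSS33 are shown because PRSS21 alone of this pair passed the threshold. The same run is in capitals where a probe holds it.
PRSS42: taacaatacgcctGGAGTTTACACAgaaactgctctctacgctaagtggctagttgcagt
PRSS45: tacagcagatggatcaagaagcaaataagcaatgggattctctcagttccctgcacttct
PRSS21: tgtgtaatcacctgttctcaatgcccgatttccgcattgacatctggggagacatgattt
PRSS33: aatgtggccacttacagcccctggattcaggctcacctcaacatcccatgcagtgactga

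The PRSS33 probe also shows how far identical letters can differ. The array holds the same 60 bases again under the name XM_002697866. The probe named PRSS33 had -3.63 and -4.45, a difference of 0.82, and the other had -4.65 and -4.84, a difference of 0.19 over 2 spots. The gap between these readings of one sequence was larger than the spot spread of 0.34. That spread is for a single difference and is pooled over probes, however, and a gap between differences varies more.

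**Figure D2:**
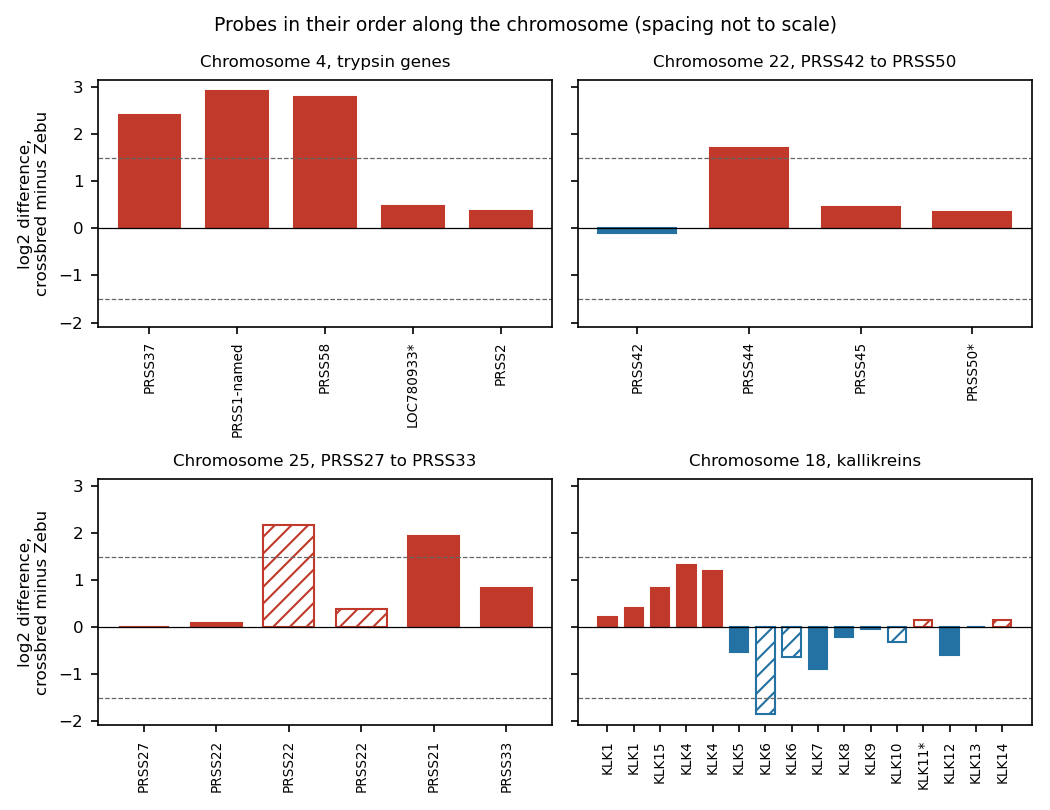
Difference in normalized log2 signal, crossbred minus Zebu (y axis), of the probes of 4 gene groups in their order along the chromosome (x axis), with dashed lines at 1.5 in size, filled bars for probes well above background on both arrays and hatched bars for the rest. An asterisk marks a probe whose array name is not the gene symbol. PRSS37, PRSS58 and the PRSS1-named probe are all above 2.4, while LOC780933 and PRSS2 are at 0.47 and 0.37, and the kallikreins detected in both pools change sign between KLK4 and KLK5.

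Of 8 digestive proteases listed, 5 had a gene name on the array and all 5 were detected. Higher in crossbred testis were 3 of them, beside 7.12% over all gene names detected. The median was 1.62 over the 4 genes detected in both pools and 1.95 with CELA3B at its bound. The probe named PRSS1, for a cationic trypsin of the pancreas, had a signal of 3.51 in the crossbred pool and 0.60 in the Zebu pool, a difference of 2.91 or 7.51-fold. PRSS2, another pancreatic trypsin, had -4.23 and -4.60, a difference of 0.37. The crossbred array was thus higher for both trypsin names, but only the PRSS1-named probe passed the threshold.

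The name of that PRSS1 probe is uncertain. Its accession, the cDNA BC109551, is not in the ARS-UCD2.0 gene table. The search there was by RefSeq transcripts, so that this absence says little about the name. The position of the probe, chr4:108805277-108805336 of the Btau_3.1 build on the plus strand, lies 30.1 kb from the probe of PRSS37. The transcript that the ARS-UCD2.0 table names PRSS1, NM_001113727, has a probe under the name LOC780933, at chr4:109268223-109268282 on the minus strand and 462.9 kb from the PRSS1-named probe. That probe had -4.78 and -5.25, a difference of 0.47. With it in place of the PRSS1-named probe, the median of the digestive list was 0.89 in place of 1.95. A further probe, named XM_866993 and described on the array as PRSS1, had 2.42 and -0.42, a difference of 2.84 over 2 spots. The readings described as PRSS1 thus fall into a pair with large differences and one with a small difference near that of PRSS2.

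On chromosome 4 the order of the probes was PRSS37 at chr4:108775114-108775173 on the minus strand, the PRSS1-named probe, PRSS58 at chr4:109243079-109243138 on the minus strand, LOC780933, and PRSS2 at chr4:110028768-110028827 on the plus strand. Their differences in that order were 2.41, 2.91, 2.78, 0.47 and 0.37. The 3 probes at one end had the large differences, and the trypsin probes at the other end had the small ones. LOC780933 lies 25.1 kb from PRSS58, with a difference of 0.47 beside 2.78. Whether position plays a part in these differences was not tested.

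Elastases of the pancreas are the CELA genes. CELA2A had a signal of -2.15 in the crossbred pool and -4.50 in the Zebu pool, a difference of 2.34 or 5.08-fold, and its other probe, which shares 41 of its bases, had a difference of 1.90. CELA3B had -3.99 in the crossbred pool and -6.80 in the Zebu pool, where it was not well above background. With the Zebu side set at the lowest signal well above background, its bound was 3.87-fold higher in crossbred testis. Its 2 spots gave measured differences of 2.74 and 2.89. With normexp, CELA2A had 1.23 and CELA3B had 0.82, both short of the threshold. CELA1 had -1.75 and -2.64, a difference of 0.89, and its other probe had -4.45 and -4.61, a difference of 0.15. Elastase signals were below the 75th percentile on both arrays.

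Markers of pancreatic acinar cells had no common direction. Of 18 listed genes 14 had a name on the array and 11 were detected. Of these, 1 was higher and 1 was lower, beside 7.12% and 2.92% over all gene names detected. The median difference over the 9 on both arrays was -0.09. PNLIP, pancreatic lipase, was 4.14-fold higher in crossbred testis at its bound, and PLA2G1B, pancreatic phospholipase, had a difference of -2.03. CPA1, CPB1, PNLIPRP2, CLPS, GP2, AMY2B, PLA2G1B, CTRB1 and PTF1A were well above background in both pools, PNLIP and AMY2A in the crossbred pool alone, and CTRC, CEL and SYCN in neither.

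The lower genes were PRSS35 and KLK6. PRSS35, an inactive family member found in the ovary and testis, had a signal of -3.99 in the crossbred pool and -2.19 in the Zebu pool, a difference of -1.80. Its other probe, at -5.30 and -2.62, had a difference of -2.68, so both probes passed the threshold. With normexp the brightest probe had -1.26 and did not pass it. KLK6 had -7.45 on the crossbred array, where it was not well above background, and -5.61 on the Zebu array. At its bound it was 1.13-fold lower in crossbred testis. The other KLK6 probe was not well above background on either array, and the count of KLK6 as lower rests on a signal at the noise floor.

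Some other PRSS genes had negative differences that fell short of the threshold. PRSS23, a secreted protease, had a signal of -1.03 and 0.26, a difference of -1.29, and a further probe of the gene, under the name TC395533, had -1.36, but the second probe of the name PRSS23 had -0.14. PRSS12, neurotrypsin, had -0.12 and 0.85, a difference of -0.97, and its overlapping other probe had -0.96. PRSS53 had -3.68 and -2.74, a difference of -0.94. PRSS8, prostasin, which is a channel-activating protease of epithelia, had -0.99 and -0.87, a difference of -0.13.

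The value of PRSS16, a thymus protease of another fold that shares only the name, depended on which probe was read. Its brightest probe had a signal of 3.001 in the crossbred pool and 3.61 in the Zebu pool, a difference of -0.61. It lies at row 56 and column 36, inside a dark patch of the crossbred array in rows 54 to 99 and columns 35 to 46, and it was the only member probe with a spot there or in a bright patch further along the array. Its identifiers on the array, which include the cDNA BT025375, lead to SAP25 in the ARS-UCD2.0 table. This probe was the only one of the 46 member probes with an accession in that table whose name there was another gene. The probes of the PRSS16 transcript NM_001076330 had -0.87 and 0.62, a difference of -1.50 that fell short of the threshold before rounding, and -3.87 and -2.63, a difference of -1.24. A further probe was not well above background on either array. With patch spots left out, PRSS16 was at -1.51 and counted as lower, which made 3 lower genes.

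The kallikreins changed sign along their group on chromosome 18. Of 13 names 8 were well above background on both arrays, 0 were higher and KLK6 alone was lower, and the median difference of the 8 was -0.13. In their order along the chromosome, KLK1 had 0.21, KLK15 had 0.83 and KLK4 had 1.20, then KLK5 had -0.52, KLK7 had -0.88, KLK8 had -0.21, KLK9 had -0.05 and KLK12 had -0.59. In the probes of their names, the signal of the 3 genes before KLK5 was thus greater in the crossbred pool. That of the 5 from KLK5 on was smaller. The differences of KLK1, KLK8 and KLK9 were less than the spot spread. KLK10, KLK13, KLK14 and KLKB1, the plasma kallikrein on chromosome 27, were not well above background on either array.

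Within this order, single probes did not all keep the sign of their gene. KLK4, a protease of enamel and prostate, had -3.04 and -4.24 in its brightest probe, and its other probes had differences of 1.32 and 0.89. KLK15 had -3.28 and -4.11, but a probe of the transcript XM_002695135 passed the background mark in the Zebu pool only, with -6.15 and -5.42. KLK8, neuropsin, had -4.29 and -4.07, a difference of -0.21. A probe of XM_002695140, brighter on average, had -3.91 and -4.26, a difference of 0.35. The KLK14 transcript XM_002695217 had a probe well above background on both arrays, with a difference of -0.11. The probes of KLK15 and KLK12 are shown because they carry the same run in capitals and stand on either side of the change of sign.
KLK15: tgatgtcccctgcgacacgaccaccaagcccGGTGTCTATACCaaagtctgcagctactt
KLK12: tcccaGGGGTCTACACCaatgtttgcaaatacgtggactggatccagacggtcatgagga

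**Figure D3:**
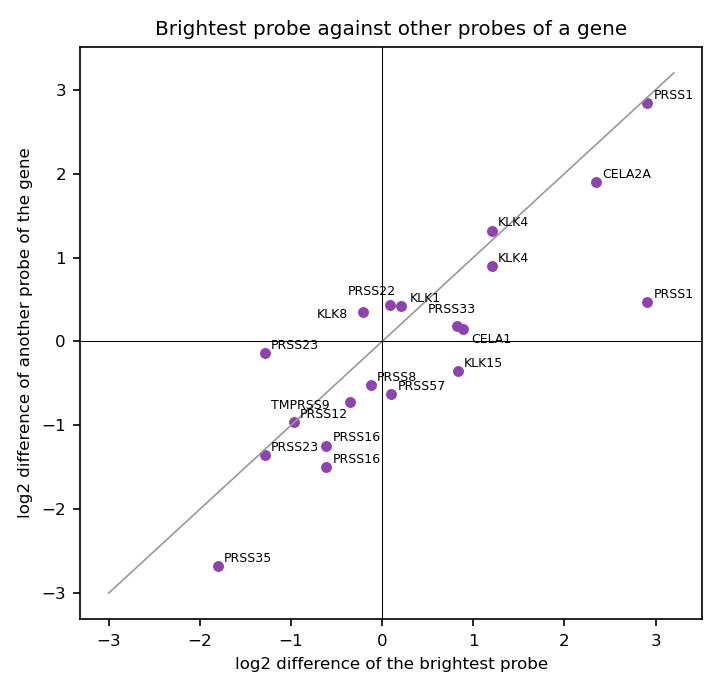
Log2 difference, crossbred minus Zebu, of the brightest probe of a gene name (x axis) and another detected probe of that gene (y axis). The line marks equal values, and a side that is not well above background is at its bound. A probe under another array name can be the brighter one, as for KLK8 and PRSS22. Of 20 pairs over 16 genes, 17 have the same sign and 10 lie within 0.5 of each other. PRSS1 has one pair near the line and one far below it, and KLK8, KLK15 and PRSS57 change sign.

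Of the members whose brightest probe was detected, 16 had another detected probe under their own name or under the name of a transcript of theirs. KLK14, TMPRSS3 and TMPRSS11E also had one, but were dim in the probe of their name and are not among the pairs. Of the 20 pairs of readings, 17 had the same sign and 10 lay within 0.5. PRSS57, a protease of neutrophil granules, was among those that changed sign, with -3.34 and -3.44 in its brightest probe, a difference of 0.10, and -0.63 in the other. PRSS37, PRSS58, PRSS21, PRSS44, PRSS54 and CELA3B had no second detected probe, so their differences each rest on 1 probe. The 18 spots nearest to the brightest probe of each of the 8 higher genes had median differences between -0.04 and 0.26.

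The membrane-anchored TMPRSS genes were mostly dim. Of 12 names 9 were not well above background on either array. TMPRSS7 had a signal of -4.50 and -5.20, a difference of 0.70, TMPRSS13 had -4.50 and -5.07, a difference of 0.57, and TMPRSS9 had -5.53 and -5.17, a difference of -0.36. No TMPRSS gene passed the threshold in a probe of its own name. TMPRSS3, a protease of the inner ear, was dim in the probe of its name, but a probe of XM_002685125 was well above background on both arrays, with -4.34 and -4.16.

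On chromosome 6 the TMPRSS11 genes, proteases of the airway and of other mucous linings, were dim on both arrays in the probes of their names. TMPRSS11E had another probe, under an Ensembl transcript name, at -4.68 in the crossbred pool and -7.01 in the Zebu pool, where it was not well above background. This measured difference of 2.33 meets the rule for a higher gene, and its bound is 1.26, which is less than the threshold. One more probe of the gene was dim on both. TMPRSS11BNL, under the name LOC785585, had -4.56 and -5.82 and was well above background on the crossbred array only. The TMPRSS11 values thus lie at the lower end of what the array could measure.

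**Figure D4:**
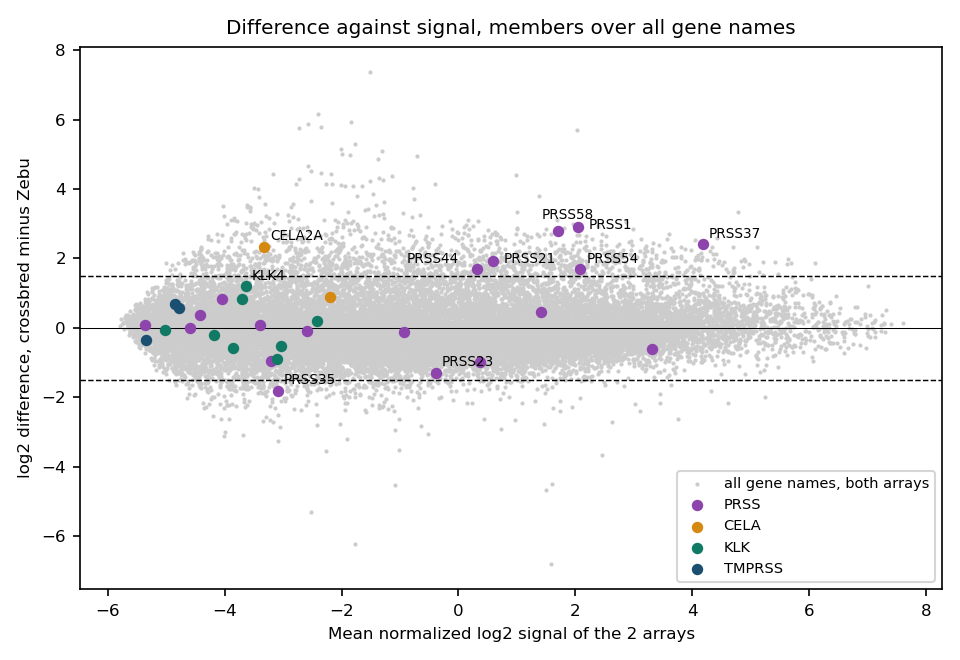
Difference in log2 signal, crossbred minus Zebu (y axis), against the mean normalized log2 signal of both arrays (x axis), for all 22842 gene names well above background on both arrays in grey and for the 32 members in colour by name group, with dashed lines at 1.5 in size. PRSS37, PRSS58, PRSS1, PRSS54, PRSS21 and PRSS44 lie above the upper line at a mean signal above 0, and CELA2A lies above it at a low signal.

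Genes that work with sperm proteases were read from a list of acrosome proteins, inhibitors and receptors. Of 21 listed 18 had a name on the array and 17 were detected, with a median of 0.67 over the 16 on both arrays. Of the 17, 2 (11.8%) were higher and 0 were lower, beside 7.12% and 2.92% over all gene names detected. ACR, the acrosin protease itself, which is also on the list of spermatid markers, had a signal of 0.47 and -0.18, a difference of 0.65. ACRBP, which binds its precursor, had 5.01 and 3.78, a difference of 1.23. PDILT, a testis chaperone, had 1.42 and -0.58, a difference of 1.997.

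Inhibitors of the SPINK family block trypsin-like proteases. SPINK1, the pancreatic trypsin inhibitor, had a signal of -1.84 in the crossbred pool and -5.29 in the Zebu pool, a difference of 3.45, and its other probe had 2.95. The paper names SPINK1 as highly upregulated from the same arrays. SPINK2, the acrosin inhibitor, had 4.84 and 3.88, a difference of 0.96, and SPINK4 had 2.25 and 1.04, a difference of 1.21. SPINK5, an inhibitor of skin kallikreins, had -4.05 and -3.54, a difference of -0.51. SPINK6 was well above background on the crossbred array only and at its bound was 1.58-fold higher there.

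Markers of spermatids had positive differences, as most germ-cell proteases did. All 17 on the array were positive and 10 were higher, beside 7.12% of all gene names detected. Their median was 1.64, and that of the 7 germ-cell proteases was 1.70. Both lists were drawn up with earlier results of these arrays known. The paper reports several of the higher markers as upregulated from the same arrays, so these counts are not independent of its results. The 9 spermatocyte markers had a median of 0.50, and 0 were higher. Markers of spermatogonia, Leydig, Sertoli and peritubular cells had medians of -0.71, -0.57, -0.90 and -0.77. Of those detected in both pools, 2, 1, 1 and 0 in that order had positive differences. The part of the cell makeup of the pools in the differences of the proteases was not tested.

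**Figure D5:**
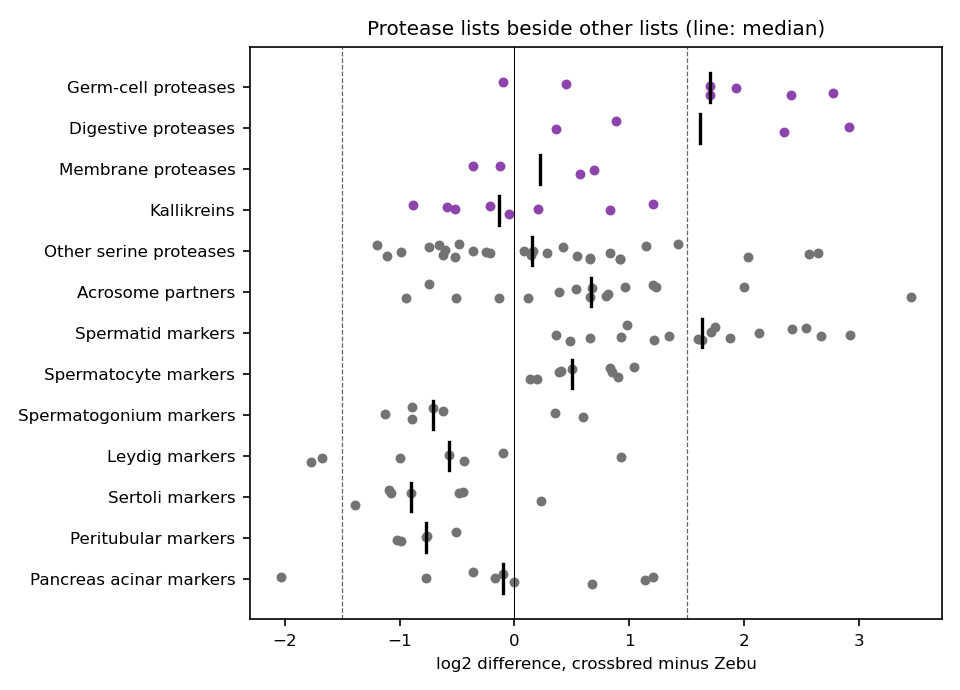
Difference in log2 signal, crossbred minus Zebu (x axis), of the genes of each list that were detected in both pools (points, 1 per gene), with the median as a black line, dashed lines at 1.5 in size, protease names in purple and other lists in grey. The germ-cell proteases have a median of 1.70 and the spermatid markers 1.64, while that of the kallikreins is -0.13. The medians of the Leydig, Sertoli and peritubular markers lie below 0, with HSD17B3 (Leydig) at 0.93 and TF (Sertoli) at 0.24 above it.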

How the data were processed

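Total RNA of 3 testes per group was pooled and each pool was hybridised to 1 array of the same slide. Spot intensities deposited by the authors came from Feature Extraction 11.5.1.1; per the file headers, its processed signal has the background subtracted and a spatial trend removed, and mean and background intensities and a mark for spots well above background come with it. They also deposited log2 values, shifted to the 75th percentile of the array (GeneSpring GX 12.6), whose medians were -3.0 and -3.01. Coordinates follow the array annotation, HGSC Btau_3.1.

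Spots of controls were dropped, as were 13 that the scanner software flagged as outliers; none was saturated. Probe values are means of log2 processed signals over spots, less the 75th percentile over probes, which as a signal was 1176 for the crossbred and 1233 for the Zebu pool. Of all spots, 72.0% and 74.3% were well above background. These values differed from the deposited log2 values by a median of -0.003 and 0.001. Where 1 side was dim, the bound used the higher of its own value and the lowest signal well above background, -5.78 on the crossbred and -5.94 on the Zebu array. The bound rests on the scanner's background correction and is no lower limit under another, since normexp put CELA3B at 0.82. With 1 array per group no test was made, and precision is limited by the number of arrays. Alternatives were normexp (limma 3.58.1, R 4.3.3, offset 50), other shifts, quantile normalization, the deposited log2 values, other probes, filters and thresholds. Scripts (Python 3.11.15, pandas 2.3.3) were tested on simulated data. Of the member names, 46 of 47 are in the RefSeq gene table of ARS-UCD2.0, used for names only. Probe sequences are those of the scanner files. Genes were named in full where they passed 1.5, belonged to the germ-cell or digestive list, had probes that disagreed in sign or by over 1.5, or had a spot in a marked patch. The members and lists were chosen with earlier results of these data known.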

Additional observations from a re-analysis of the deposited data

How the results depend on the processing

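No paired analysis was possible because each group had 1 array. The count of 8 higher members was between 6 and 9 under the other settings, except at a threshold of 2, where it was 5. With normexp, CELA2A and CELA3B were no longer among them. The count of 2 lower members was 0 with normexp and 0 at a threshold of 2, and it was 1 when all probes of a gene were averaged, 1 with only probes well above background in both pools, and 1 with the bound on dim sides, which was chosen after seeing the data. KLK6 was the gene lost in these last 3 settings. The median of the digestive proteases, 1.95, was 0.82 with normexp and 2.34 without a filter on dim probes, and 0.89 with the LOC780933 probe for PRSS1, also chosen after seeing the data. The median of the membrane serine proteases was 0.22 and became -0.36 without the filter, which adds 9 dim genes. The medians of the germ-cell proteases and the kallikreins and that of all members moved by less than the spot spread under every setting run, though that of all members was -0.0009 without the filter. Of the values of single named genes under other settings, 169 moved by less than the spot spread and 15 by more, and no called gene changed direction. Several settings could hardly move a value or a median, however. The other shifts, the deposited values and the removal of patch spots change nearly all genes by the same small amount. Averaging probes or keeping those detected in both pools leaves a gene with 1 such probe unchanged. The tally is therefore no measure of robustness. The median difference of all gene names stayed between -0.07 and -0.01 under the 5 scalings. Most TMPRSS signals and some kallikrein signals lie close to background, where normexp shrinks differences by its construction. The elastases that lost their calls with normexp were dim in the Zebu pool, at -4.50 for CELA2A and -6.80 for CELA3B. Both values are below the median of the deposited values there, -3.01, and CELA3B was not well above background. In the crossbred pool CELA2A was at -2.15 and CELA3B at -3.99, beside a median of -3.0. CELA1, at -1.75 and -2.64 in the crossbred and the Zebu pool, was above both medians but had no call to lose. The part of the shrinkage by normexp in the loss of the CELA2A and CELA3B calls was not tested.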

Other observations

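Other serine proteases, of blood, complement, immune cells and tissue remodelling, were read from a list of 45 genes, of which 36 had a name on the array and 29 were detected. Of these, 4 (13.8%) were higher in crossbred testis and 0 were lower, beside 7.12% and 2.92% over all gene names detected. The median over the 28 on both arrays was 0.15, beside 0.15 for the PRSS, KLK, TMPRSS and CELA members. MASP1, a protease of the lectin pathway of complement, had a signal of -0.48 in the crossbred pool and -2.51 in the Zebu pool, a difference of 2.03. MASP2, of the same pathway, was too dim to pass the background mark in the Zebu pool and at its bound was 5.48-fold higher in crossbred testis. HGF, a growth factor of the protease fold without activity, had 2.02 and -0.55, a difference of 2.57, and its other detected probe had 1.69. The paper lists HGF among its upregulated proteolysis genes from the same arrays. GZMB, granzyme B of killer lymphocytes, had -1.05 and -3.70, a difference of 2.64 in its brightest probe, while its 3 other detected probes had a median of -1.32.

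Of the 12 markers of the epididymis on the array 7 were detected and 1 was higher, namely GPX5, which is secreted in the epididymis. GPX5 had -2.17 in the crossbred pool and -5.65 in the Zebu pool, where it was not well above background. At its bound it was 11.1-fold higher in the crossbred pool. The spot of GPX5 lies in the dark patch of the crossbred array that also holds the brightest PRSS16 probe. Over all gene names detected, 7.12% were higher. The part of epididymal tissue in the differences of the proteases was not tested.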
